A study of Mus musculus with 35 samples.

Results

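The 35 genes described here encode enzymes of sterol and fatty acid synthesis, their regulators, and proteins that carry sterol within cells and out of them. They were taken from a fixed list by gene symbol, and all 35 were found among the 19573 genes of the deposited expression table. By role they comprised 7 enzymes of the mevalonate steps, 11 enzymes from squalene to cholesterol, 5 regulators of the SREBP transcription factors, 4 genes of sterol transport and export and 8 genes of fatty acid synthesis. Their expression was read from bulk RNA-seq of 35 libraries of cortical astrocytes purified by FACS (fluorescence-activated cell sorting) from Aldh1l1egfp mice aged P30-35 (postnatal days 30 to 35). All groups shared this genotype, in which the promoter of Aldh1l1, a folate enzyme gene of astrocytes, drives green fluorescent protein, so the sorted cells were those in which this promoter was active. Mice received lipopolysaccharide (LPS, endotoxin of the bacterial outer membrane) at 5 mg/kg, or saline. Females were sampled 3 h after LPS (5 libraries) or saline (4), 24 h after LPS (4) or saline (5), and 72 h after LPS (3) or saline (4), and males 24 h after LPS (5) or saline (5). Libraries are numbered within a group in the labels, which do not state whether a number stands for its own animal. The p-values below therefore weigh differences against the spread among libraries, and this spread may be technical. In bulk RNA, fewer cells of a type and less RNA per cell cannot be told apart.

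Astrocytes make most of the cholesterol of the adult brain, because plasma lipoproteins do not cross the blood-brain barrier, and pass it to neurons and other glia on lipoprotein particles that carry apolipoprotein E. Synthesis runs from acetyl-CoA through mevalonate and farnesyl diphosphate to squalene, then through lanosterol to cholesterol. When sterol in the endoplasmic reticulum is scarce, SCAP escorts the SREBP precursors to the Golgi, where they are cut and released to activate genes of this pathway; when sterol is plentiful, the INSIG proteins hold SCAP back. SREBP proteins bind a sterol regulatory element, usually beside sites for the factors NF-Y (the CCAAT box) and Sp1 (the GC box), and the liver X receptors, which respond to oxidised sterols, activate Abca1, Abcg1 and Apoe.

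The promoters of 4 genes are shown because the results at 24 h turn on them. Hmgcs1, Cyp51 and Nsdhl were called lower after LPS and Ebp was called higher. Among members with a promoter, the exact letters TCACNCCAC of a sterol regulatory element (N is any base) were found only in Hmgcs1. Variants of this element were not searched, so a promoter without these letters may still hold one. Each sequence runs 5′ to 3′ from 250 bases before to 50 bases after the start of the gene in RefSeq (GRCm38.p6). Exact matches to TCACNCCAC and to the CCAAT box on either strand are in capitals. The Hmgcs1 promoter lies at chr13:119690101-119690400, plus strand, that of Cyp51 at chr5:4104648-4104947, minus strand, that of Nsdhl at chrX:72918271-72918570, plus strand, and that of Ebp at chrX:8193463-8193762, minus strand.
Hmgcs1: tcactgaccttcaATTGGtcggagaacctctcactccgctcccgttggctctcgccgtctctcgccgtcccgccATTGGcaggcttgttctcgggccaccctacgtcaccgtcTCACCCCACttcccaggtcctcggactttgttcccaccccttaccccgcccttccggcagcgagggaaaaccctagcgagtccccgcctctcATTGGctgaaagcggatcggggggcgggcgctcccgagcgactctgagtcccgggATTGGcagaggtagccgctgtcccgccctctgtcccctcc
Cyp51: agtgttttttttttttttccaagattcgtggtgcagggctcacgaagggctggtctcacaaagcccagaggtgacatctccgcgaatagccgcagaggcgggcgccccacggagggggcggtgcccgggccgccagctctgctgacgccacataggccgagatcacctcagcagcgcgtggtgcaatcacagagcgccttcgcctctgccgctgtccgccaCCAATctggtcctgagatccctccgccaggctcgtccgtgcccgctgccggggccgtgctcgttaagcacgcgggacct
Nsdhl: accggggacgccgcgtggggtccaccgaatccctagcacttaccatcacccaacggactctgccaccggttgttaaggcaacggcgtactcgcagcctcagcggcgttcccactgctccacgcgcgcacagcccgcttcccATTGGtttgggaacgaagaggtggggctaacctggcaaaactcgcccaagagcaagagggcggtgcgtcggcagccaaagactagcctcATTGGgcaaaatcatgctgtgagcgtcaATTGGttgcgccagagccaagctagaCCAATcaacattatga
Ebp: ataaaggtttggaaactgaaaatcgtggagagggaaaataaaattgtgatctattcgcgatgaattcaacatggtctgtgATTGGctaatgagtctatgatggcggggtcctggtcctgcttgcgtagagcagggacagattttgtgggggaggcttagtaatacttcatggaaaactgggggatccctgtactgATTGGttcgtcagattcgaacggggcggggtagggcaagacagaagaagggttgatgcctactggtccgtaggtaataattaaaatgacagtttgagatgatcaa

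In Hmgcs1 the run of capitals TCACCCCAC is the match to the sterol regulatory element, searched as TCACNCCAC on both strands, and its first base stands at -137 relative to the start. The same window held 4 CCAAT boxes, each read as ATTGG, 1 of which begins inside the transcribed bases. Nsdhl also held 4 CCAAT boxes, Ebp held 2 and Cyp51 held 1. Promoters were found for 27 of the 35 members. Some genes have several promoters there, and a gene was counted where any of them held the motif. CCAAT was in 20 of these 27, against 41.1% of all 27025 genes in the table. GGGCGG, the GC box, was in 21 of the 27, against 38.2% of all genes, and CACGTG, a palindromic E-box, was in 7 of the 27, against 8.09%. TCACNCCAC was in 1 of the 27, against 1.44% of all genes, and the liver X receptor motif DR4 (a direct repeat of AGGTCA spaced by 4 bases) was in 0 of the 27, against 0.0148%. Only these exact letters were searched, and variants of either motif were not. The DR4 letters were in only 4 of all 27025 genes, so their absence here cannot show that a liver X receptor site is missing. Of the 9 members with a promoter that were called lower in the average of the sexes at 24 h, 8 held CCAAT, 9 held GGGCGG and 4 held CACGTG. Ebp, the member called higher, held CCAAT and GGGCGG too. A match of letters is a description and not a site of binding, and none of these motifs overlap each other in the 4 sequences.

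Expression was given as FPKM (fragment counts divided by transcript length and by the mapped fragments of the library), with no counts, so the depth behind each value is unknown. Changes are log2 differences of FPKM + 1 between group means with their standard error (SE), tested with limma, and a gene was called at an adjusted p under 0.05. The 8 astrocyte markers chosen for the check, among them Aldh1l1, Aqp4 and Slc1a3, were above 0 in all groups and together summed to between 5213 and 11220 FPKM per library. Mitochondrially encoded genes took 4.86 to 24.4% of the FPKM sum. At 24 h in males this share was 4.86 to 16.3% in LPS libraries and 16.8 to 23.4% in saline libraries, so these groups did not overlap, and in females it was 5.57 to 17.3% in LPS libraries and 8.88 to 24.4% in saline libraries. At 24 h, 11 libraries were written in the file with the digits of single-precision numbers and 8 with those of double-precision numbers, in both treatments and sexes. Among female LPS libraries at 24 h only 1, library 4, was in double-precision format. Values within each number format are given for the members called at 24 h. So are values with the mitochondrial share as a covariate, an alternative chosen after the data were seen.

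In saline libraries the members spanned a wide range of levels. Apoe, the main apolipoprotein of astrocytes, averaged 4815 ± 2713 FPKM (SD, n = 18) and ranged from 1252 to 10010 FPKM between libraries. Msmo1, the methylsterol oxidase that acts downstream of lanosterol, was the most abundant synthesis gene at 556.5 ± 129 FPKM (SD, n = 18). Elovl5, Scd2 and Fads2, which elongate and desaturate fatty acids, averaged 336, 289 and 182 FPKM. Hmgcs1, which condenses acetyl-CoA with acetoacetyl-CoA into the precursor of mevalonate, averaged 108 FPKM and ranged from 72.6 to 177 FPKM. At the low end were Stard4, a cytosolic sterol transfer protein, at 3.30 FPKM, and Abcg1, a sterol pump, at 2.19 FPKM with a range of 0.599 to 5.92 FPKM. No member was listed at 0 in any of the 35 libraries. The coefficient of variation over the saline libraries was smallest for Insig2 at 15.2%, Nsdhl at 15.3% and Cyp51 at 16.1%, and was 56.3% for Apoe and 65.7% for Abcg1. These spreads pool the 3 times and both sexes.

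**Figure D1:**
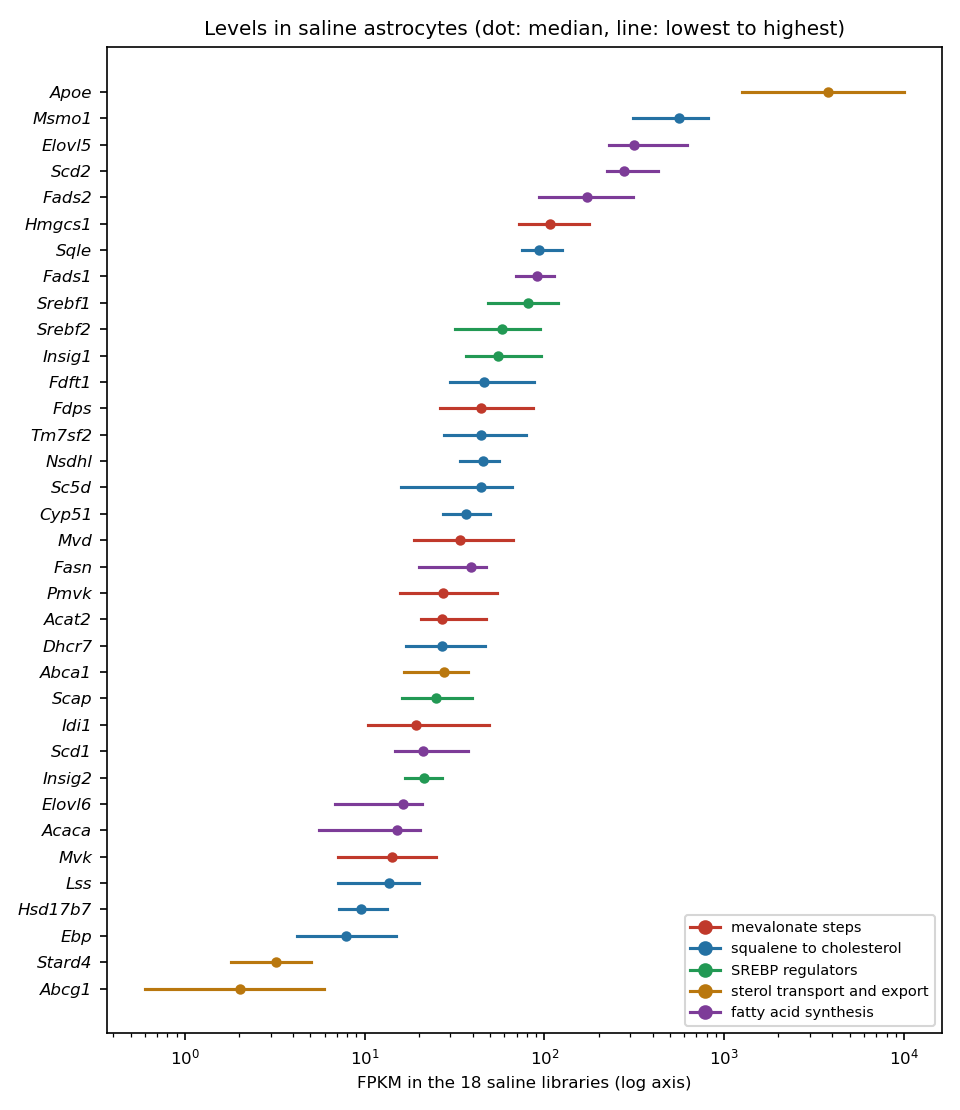
FPKM of each member over the 18 saline libraries on a log axis, with the median as a dot and the lowest to highest library as a line, grouped by role. Apoe lies highest, Msmo1 is the highest of the synthesis genes, and Stard4 and Abcg1 are the lowest.

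At 3 h, LPS changed none of the 35 members past the test. With limma, 0 members were called higher against 1.94% of all 19426 genes tested, and 0 lower against 0.443% of all genes. At an unadjusted p under 0.05 there were 2 higher, Fasn and Ebp, and 0 lower. For counts at an unadjusted p, here and below, the share of all genes was not taken, so they have no background. The authors' deposited table of DESeq2 results called 0 members higher, against 2.61% of its genes, and 0 lower, against 0.821%. The median change of the members was 0.10 on the log2 scale, against 0.02 over all genes. All 7 mevalonate genes had positive values, with a median of 0.34, while the 11 genes from squalene to cholesterol had a median of -0.01. For 0 members was every LPS library above every saline library, against 2.98% of all genes, and for 0 was every one below, against 1.7%.

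Hmgcs1 gave 109, 106, 102, 105 and 98.7 FPKM in the LPS libraries and 72.6, 116, 113 and 111 FPKM in the saline libraries at 3 h, and the LPS values lay inside the saline range. Fasn, the fatty acid synthase, averaged 45.2 ± 16.9 FPKM after LPS (SD, n = 5) and 29.1 ± 11.2 FPKM after saline (SD, n = 4), a log2 difference of 0.60 ± 0.28 (SE) with an adjusted p of 0.377. Ebp, the isomerase that moves a double bond in the sterol ring, gave 10.4, 8.77, 7.57, 12.3 and 13.1 FPKM in the LPS libraries and 5.78, 5.78, 4.20 and 14.4 FPKM in the saline libraries. Its difference was 0.53 ± 0.26 with an adjusted p of 0.408, and saline library 4, at 14.4 FPKM, lay above every LPS library. Without that library Ebp was called higher, at 0.86 with an adjusted p of 0.0486, which made the count of members called higher 1. Mvd, which decarboxylates mevalonate diphosphate, gave 43.1, 30.9, 22.7, 55.1 and 81.5 FPKM in the LPS libraries and 18.9, 27.01, 30.9 and 61.5 FPKM in the saline libraries, with wide overlap. Srebf2, the SREBP gene that mainly drives sterol genes, gave 56.3, 48.5, 44.6, 94.3 and 92.6 FPKM in the LPS libraries and 40.1, 51.1, 73.8 and 83.9 FPKM in the saline libraries, and these also overlapped. Abca1, the pump that loads cholesterol onto apolipoproteins, gave 32.5, 29.1, 22.8, 23.9 and 21.4 FPKM in the LPS libraries and 24.8, 25.1, 18.9 and 20.5 FPKM in the saline libraries, a difference of 0.20 ± 0.19 with an adjusted p of 0.724. At this time P2ry12 and Gpr34 of the 10 microglia markers and 4 of the 8 endothelial markers were lower after LPS, and the summed microglia markers were 81.0 to 124 FPKM in LPS libraries and 153 to 264 FPKM in saline libraries. Their part in the member values was not tested.

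At 24 h, Hmgcs1 was lower after LPS in both sexes. Of the 11 genes from squalene to cholesterol, 0 were called in females, and 5 were lower and 1 higher in males. In females 1 of the 35 members was lower, Hmgcs1, against 0.798% of all genes tested, and 0 were higher, against 2.54%. At an unadjusted p under 0.05 females had 7 members lower and 0 higher. The authors' deposited table called 3 lower (Dhcr7, Mvd and Hmgcs1, against 1.41% of its genes) and 0 higher, against 2.86%. In males 7 members were lower, against 1.82% of all genes, and 1 was higher, against 7.08%. The 7 were Hmgcs1, 5 genes from squalene to cholesterol (Cyp51, Msmo1, Nsdhl, Hsd17b7 and Sc5d) and Scd1 of fatty acid synthesis, and the member called higher was Ebp, which also acts between squalene and cholesterol. In the average of the female and male effects 10 members were lower, against 4.97% of all genes, and 1 was higher, against 11.8%. These 10 were Hmgcs1 and Mvd of the 7 mevalonate genes, Cyp51, Msmo1, Nsdhl, Hsd17b7, Sc5d and Dhcr7 of the 11 later sterol genes, Abca1 of the 4 transport genes and Scd1 of the 8 fatty acid genes, while 0 of the 5 SREBP regulators were called.

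Over all members the median log2 change at 24 h was -0.21 in females, against 0.05 over all genes, and -0.33 in males, against 0.18 over all genes. Of the members, 28 had negative values in females and 22 in males, while 43.9% of all genes were negative in females and 36.1% in males. By role, the male medians were -0.19 for the mevalonate genes, -0.56 for squalene to cholesterol, 0.18 for the SREBP regulators, 0.01 for transport and export and -0.26 for fatty acid synthesis. The female medians, in the same order, were -0.41, -0.26, 0.06, -0.16 and -0.13. The general shift of all genes in males, 0.18 on FPKM as deposited, was 0.03 after median-of-ratios scaling, and that of the average of the sexes was 0.12 and 0.02. Under that scaling the male contrast called 12 members lower and 1 higher, with 754 genes higher and 634 lower among all genes, in place of 1376 higher and 353 lower. For the average of the sexes it called 16 members lower and 1 higher, with 1716 genes higher and 1472 lower among all genes, in place of 2283 and 966. Each male change called is therefore given as measured and relative to the median of all genes. Relative to that median the averages over the sexes were -1.02 for Hmgcs1, -0.81 for Mvd, -0.55 for Cyp51, -0.83 for Msmo1, -0.64 for Nsdhl and -0.55 for Hsd17b7. They were -0.62 for Sc5d, -0.85 for Dhcr7, -0.53 for Abca1, -0.55 for Scd1 and 0.59 for Ebp, each in the direction measured.

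**Figure D2:**
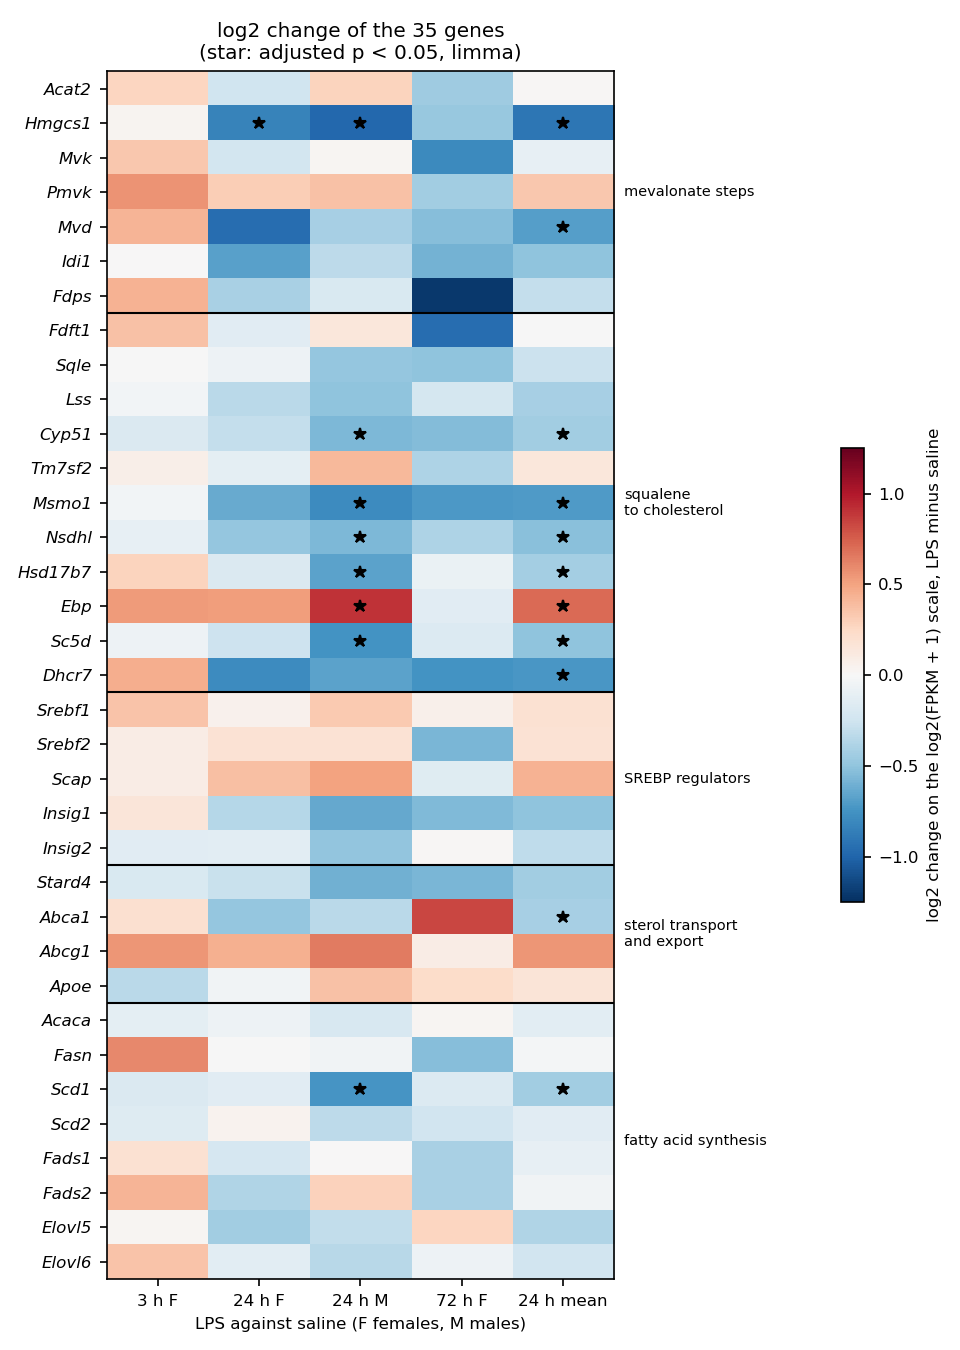
Heat map of the log2 change of FPKM + 1, LPS minus saline, for the 35 members (down the page, grouped by role) at 3, 24 and 72 h in females, 24 h in males and the average of the sexes at 24 h, with stars at an adjusted p under 0.05. Cells of Hmgcs1 and of most later sterol genes are blue in the 24 h columns. Ebp is above 0 there, as are Fdft1 and Tm7sf2 in males, and the 3 h and 72 h columns have no star.

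Hmgcs1 (chromosome 13, 119690379 to 119708260, plus strand, mm10) gave 68.1, 60.97, 58.7 and 73.3 FPKM in the LPS libraries and 111, 87.7, 85.9, 145 and 177 FPKM in the saline libraries in females at 24 h. Male values were 49.2, 56.2, 44.7, 69.3 and 66.2 FPKM in the LPS libraries and 126, 109.9, 148, 83.1 and 104 FPKM in the saline libraries. In both sexes every LPS library was below every saline library. The means were 65.3 ± 6.67 FPKM after LPS (SD, n = 4) and 121 ± 39.3 FPKM after saline (SD, n = 5) in females, and 57.1 ± 10.6 FPKM after LPS and 114 ± 24.3 FPKM after saline in males (SD, n = 5 each). Hmgcs1 fell by 0.83 ± 0.20 (SE, log2) in females, adjusted p 0.0111, and by 0.98 ± 0.19 in males, adjusted p 0.00119. Relative to all genes the changes were -0.88 and -1.16, and their average over the sexes as measured was -0.91 ± 0.14, adjusted p 1.45e-05. The average remained past the test under all 33 alternatives run, between -1.05 and -0.79. Within the single-precision libraries the average was -0.92 and within the double-precision libraries -0.88. The double-precision libraries held 1 female LPS library, library 4, and 2 female saline libraries. The female call was lost without LPS library 3, at an adjusted p of 0.0524, with the female groups fitted alone (0.141) and without libraries under 10% mitochondrial share (0.267). The female change was -0.58 in single-precision and -1.12 in double-precision libraries, and the male change was -1.26 in single-precision and -0.65 in double-precision libraries, the second with an adjusted p of 0.176. With the mitochondrial share as a covariate the average was -0.97, adjusted p 3.07e-05.

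Mvd, which makes isopentenyl diphosphate, gave 19.4, 23.5, 14.5 and 13.8 FPKM in the LPS libraries and 20.1, 28.4, 34.3, 38.3 and 66.6 FPKM in the saline libraries in females. Male values were 21.6, 21.2, 23.9, 36.4 and 34.97 FPKM in the LPS libraries and 33.7, 36.2, 44.1, 39.3 and 29.7 FPKM in the saline libraries. The groups overlapped in both sexes. Its change was -0.96 ± 0.34 in females (adjusted p 0.128) and -0.42 ± 0.32 in males (adjusted p 0.366), and the average of -0.69 ± 0.23 passed at an adjusted p of 0.0367. This call rested on single libraries. It was lost without female saline library 4 or 5 (adjusted p 0.0555 and 0.0678), male saline library 3 or 4 (0.0551 and 0.0507), female LPS library 1, 3 or 4 (0.0537, 0.0648 and 0.0569) or male LPS library 1, 2 or 3 (0.0613, 0.056 and 0.0531). The other mevalonate genes did not pass. Idi1, the isomerase of isopentenyl diphosphate, had -0.68 ± 0.42 in females and -0.33 ± 0.39 in males, and Fdps, which builds farnesyl diphosphate, had -0.41 ± 0.29 in females and -0.19 ± 0.28 in males. Acat2, which makes acetoacetyl-CoA, and Pmvk, which phosphorylates phosphomevalonate, had positive values of 0.28 ± 0.21 and 0.36 ± 0.30 in males.

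Between squalene and cholesterol, Cyp51, the lanosterol demethylase, gave 29.5, 23.2, 20.4, 29.4 and 32.3 FPKM in the LPS libraries and 41.3, 41.9, 49.8, 32.4 and 35.98 FPKM in the saline libraries in males, and every LPS library was below every saline library. Female values were 24.1, 36.1, 33.3 and 31.6 FPKM in the LPS libraries and 37.6, 42.7, 33.8, 34.4 and 43.8 FPKM in the saline libraries, and the groups overlapped. Cyp51 fell by 0.57 ± 0.16 in males (adjusted p 0.0283, -0.74 relative to all genes), had -0.30 ± 0.17 in females (adjusted p 0.468), and averaged -0.43 ± 0.12 (adjusted p 0.0116). Msmo1 acts downstream, where it starts the removal of further methyl groups from the sterol. It gave 498, 292, 310.0, 294 and 279 FPKM in the LPS libraries and 565, 481, 647, 469 and 693 FPKM in the saline libraries in males. Female values were 369, 280.4, 429 and 513 FPKM in the LPS libraries and 688, 577, 556, 436 and 814 FPKM in the saline libraries. The groups overlapped in both sexes, through LPS library 1 in males and LPS library 4 in females. Msmo1 fell by 0.79 ± 0.23 in males (adjusted p 0.03, -0.97 relative to all genes), had -0.63 ± 0.24 in females (adjusted p 0.191), and averaged -0.71 ± 0.17 (adjusted p 0.00353).

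Nsdhl and Hsd17b7 complete the same demethylation. Nsdhl (chromosome X, 72918557 to 72958514, plus strand) gave 29.3, 26.9, 34.5 and 35.3 FPKM in the LPS libraries and 55.9, 46.7, 47.1, 36.8 and 37.3 FPKM in the saline libraries in females. In males it gave 35.1, 31.8, 33.1, 34.97 and 29.6 FPKM in the LPS libraries and 50.03, 48.8, 51.2, 40.4 and 55.4 FPKM in the saline libraries. Every LPS library was below every saline library of its sex. Nsdhl fell by 0.56 ± 0.16 in males (adjusted p 0.0229, -0.74 relative to all genes), had -0.49 ± 0.16 in females (adjusted p 0.112), and averaged -0.52 ± 0.11 (adjusted p 0.00161). Hsd17b7 gave 7.76, 6.24, 5.48, 5.95 and 6.09 FPKM in the LPS libraries and 11.96, 10.3, 11.8, 9.40 and 9.74 FPKM in the saline libraries in males, with no overlap. In females it gave 10.5, 8.01, 8.59 and 8.23 FPKM in the LPS libraries and 8.67, 9.45, 8.33, 11.98 and 12.9 FPKM in the saline libraries, with overlap. Hsd17b7 fell by 0.67 ± 0.17 in males (adjusted p 0.0106, -0.85 relative to all genes), and had -0.18 ± 0.18 in females (adjusted p 0.719). The average was -0.43 ± 0.12 (adjusted p 0.0139), and its male call was kept whichever library was left out.

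Sc5d and Dhcr7 carry out the last desaturation and reduction before cholesterol. Sc5d gave 31.8, 29.7, 31.4, 35.1 and 16.4 FPKM in the LPS libraries and 53.2, 42.1, 54.5, 38.9 and 52.1 FPKM in the saline libraries in males, with no overlap. Female values were 33.8, 34.6, 40.9 and 57.3 FPKM in the LPS libraries and 46.1, 48.00, 38.9, 49.7 and 65.8 FPKM in the saline libraries, with overlap. Sc5d fell by 0.75 ± 0.22 in males (adjusted p 0.0318, -0.93 relative to all genes) and had -0.26 ± 0.23 in females (adjusted p 0.691), with an average of -0.51 ± 0.16 (adjusted p 0.0285). Dhcr7, the reductase of the final step, gave 15.3, 22.4, 13.1 and 15.4 FPKM in the LPS libraries and 16.9, 24.6, 27.3, 41.1 and 41.5 FPKM in the saline libraries in females. Male values were 20.1, 14.03, 22.01, 22.6 and 16.9 FPKM in the LPS libraries and 30.2, 30.1, 46.8, 28.2 and 22.03 FPKM in the saline libraries. Each sex had 1 saline library, library 1 in females and library 5 in males, inside the LPS range. Dhcr7 did not pass in either sex alone, at -0.79 ± 0.25 in females (adjusted p 0.0881) and -0.67 ± 0.24 in males (adjusted p 0.0691), and was lower in their average at -0.73 ± 0.17 (adjusted p 0.00394). Sqle and Lss, which oxidise and close squalene into lanosterol, had -0.48 ± 0.17 (adjusted p 0.0701) and -0.51 ± 0.25 (adjusted p 0.176) in males. Fdft1, the squalene synthase, and Tm7sf2, a sterol reductase, had 0.14 ± 0.29 and 0.41 ± 0.27 in males, with adjusted p of 0.765 and 0.298.

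Ebp (chromosome X, 8185329 to 8193512, minus strand) was the only member called higher at 24 h. Male values were 16.98, 14.03, 11.1, 16.7 and 17.1 FPKM in the LPS libraries and 6.80, 6.69, 7.99, 7.17 and 9.45 FPKM in the saline libraries, and every LPS library was above every saline library. Female values were 15.05, 15.2, 11.5 and 10.7 FPKM in the LPS libraries and 7.41, 7.84, 8.60, 8.03 and 12.7 FPKM in the saline libraries, where saline library 5, at 12.7 FPKM, lay within the LPS values. Ebp rose by 0.90 ± 0.24 in males (adjusted p 0.0192, 0.72 relative to all genes), had 0.52 ± 0.26 in females (adjusted p 0.361), and averaged 0.71 ± 0.18 (adjusted p 0.00533). With the mitochondrial share as a covariate the average was 0.35 (adjusted p 0.188) and the male change 0.42 (adjusted p 0.426), so neither call held. Within the single-precision and double-precision libraries the male changes were 1.01 and 0.76.

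**Figure D3:**
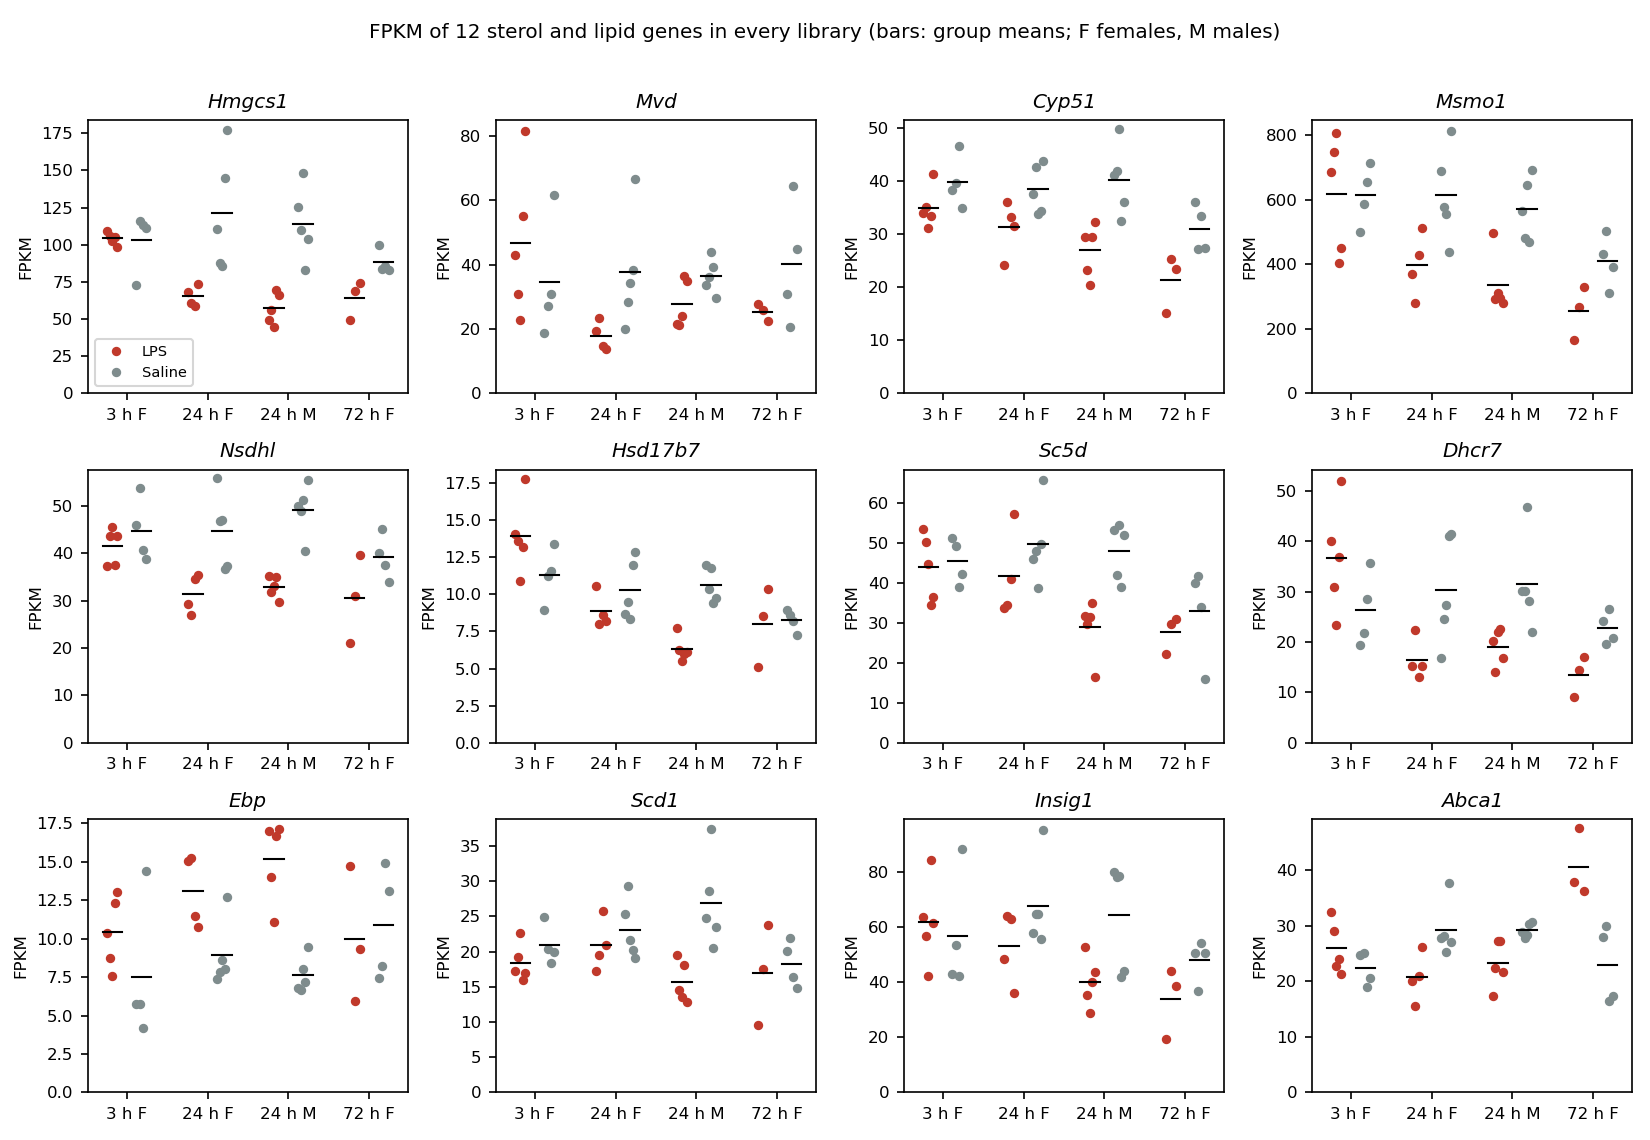
FPKM of 12 members in every library, with LPS libraries in red left of saline libraries in grey for each time and sex, and group means as bars. Hmgcs1 lies lower after LPS at 24 h in both sexes with no overlap, Ebp lies higher after LPS in males, and the Abca1 libraries at 72 h lie above saline while those at 24 h lie mostly below.

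Most male calls depended on single libraries, while those of Hmgcs1 and Hsd17b7 were kept whichever library was left out. Leaving out LPS library 5 gave 3 members lower and 0 higher: adjusted p was 0.059 for Ebp, 0.0893 for Msmo1, 0.0723 for Nsdhl, 0.133 for Sc5d and 0.0615 for Scd1. Of all genes 0.53% were then lower, in place of 1.82%. Without saline library 1 there were 3 members lower, against 0.721% of all genes. Without saline library 3 or 5 there were 4, against 2.24% and 0.705%. In these fits Cyp51 had 0.0618 without saline library 1 and 0.0613 without 3. Msmo1 had 0.0601, 0.0514 and 0.0866 without saline library 1, 3 or 5, and Sc5d had 0.0746, 0.0546 and 0.0778. Nsdhl had 0.0501 and 0.0697 without saline library 1 or 5. Cyp51 also missed without saline library 2 (0.0574), LPS library 2 (0.0501) or LPS library 3 (0.0712), and Msmo1 without LPS library 4 (0.0728). Without LPS library 1 there were 2 members higher. In females the count of members lower was 2 without saline library 1, against 0.571% of all genes, and 0 without LPS library 3, against 0.371%. In the average of the sexes Cyp51, Msmo1, Nsdhl, Hsd17b7, Dhcr7 and Ebp kept their calls whichever library was left out, and the count of members higher was 2 without male saline library 4, female LPS library 4 or male LPS library 1. The averaged Sc5d call was lost without female LPS library 1 (0.0715), female LPS library 2 (0.0713) or male LPS library 5 (0.0713).

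Within number formats the male changes kept their direction. In single-precision and double-precision libraries they were -0.73 and -0.33 for Cyp51, -0.56 and -0.95 for Msmo1, and -0.57 and -0.53 for Nsdhl. They were -0.63 and -0.63 for Hsd17b7, -0.67 and -0.75 for Sc5d, and -0.79 and -0.56 for Scd1. The averages over the sexes in the 2 formats were -0.72 and -0.83 for Dhcr7, -0.64 and -0.96 for Mvd, -0.51 and -0.31 for Cyp51, -0.66 and -0.58 for Msmo1 and -0.64 and -0.30 for Nsdhl. They were -0.30 and -0.58 for Hsd17b7, -0.47 and -0.38 for Sc5d, -0.51 and -0.27 for Abca1, -0.54 and -0.23 for Scd1 and 0.87 and 0.42 for Ebp, all in the direction of the pooled value. Each double-precision average rests on 1 female LPS library, library 4. Only 1 male member passed in the single-precision libraries, Hmgcs1, and 0 passed in the double-precision libraries by limma, where fewer libraries were compared. Of all genes 0.124% and 0.108% were lower in males in these 2 fits. With the mitochondrial share as a covariate the averaged changes were -0.50 for Msmo1 (adjusted p 0.0677), -0.26 for Sc5d (0.39), -0.31 for Scd1 (0.247) and -0.20 for Abca1 (0.373), none of them past the test. It was -0.40 for Nsdhl (0.0257), -0.97 for Dhcr7 (0.000392), -0.52 for Cyp51 (0.00633), -0.48 for Hsd17b7 (0.0188) and -1.27 for Mvd (2.22e-06), all of which passed. Without libraries under 10% mitochondrial share the averages of Nsdhl, Dhcr7, Cyp51 and Hsd17b7 did not pass, and that of Mvd did. In males alone the changes with this covariate were -0.50 for Msmo1 (adjusted p 0.348, and 0.063 without libraries under 10% mitochondrial share) and -0.39 for Nsdhl (adjusted p 0.252, and 0.19 without libraries under 10% mitochondrial share). They were -0.42 for Sc5d (adjusted p 0.453, and 0.123 without libraries under 10% mitochondrial share) and -0.56 for Scd1 (adjusted p 0.201, and 0.107 without libraries under 10% mitochondrial share), so these 4 male calls were lost both ways. Hsd17b7 passed in males with the covariate, at -0.75 (adjusted p 0.0191), and not without those libraries (0.0957). The male Cyp51 change passed both ways, at -0.69 (0.0233) with the covariate and -0.84 (0.0437) without those libraries. In males the cut at 10% removed LPS libraries 1, 4 and 5, with shares of 7.62, 5.32 and 4.86%. It left LPS libraries 2 and 3, so fewer libraries were compared.

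Markers of other cells were present at 24 h. The 10 oligodendrocyte markers, from cells that also make cholesterol, summed to 592 to 1412 FPKM in male LPS libraries and 342 to 1031 FPKM in male saline libraries, and to 317 to 436 FPKM in female LPS libraries and 207 to 717 FPKM in female saline libraries. The 10 microglia markers summed to 94.3 to 195 FPKM in male LPS libraries and 57.7 to 160 FPKM in male saline libraries, and to 61.5 to 114 FPKM in female LPS libraries and 42.1 to 158 FPKM in female saline libraries. In males 1 oligodendrocyte marker was higher, and of the microglia markers 4 were higher and 2 lower. Male LPS libraries also had 2 of 8 endothelial, 2 of 7 neuron and 2 of 3 leukocyte markers higher, with 1 of 8 astrocyte markers. In females 2 of 3 leukocyte, 1 of 8 endothelial and 1 of 8 astrocyte markers were higher, and 2 of 5 erythroid and 1 of 10 microglia markers were lower. No oligodendrocyte or microglia marker was listed at 0 in the male libraries at 24 h. The part of these markers in the sterol results was not tested.

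The regulators did not pass at 24 h. Srebf2 gave 69.6, 82.99, 57.7 and 48.1 FPKM in the LPS libraries and 31.8, 57.97, 58.6, 61.9 and 79.5 FPKM in the saline libraries in females. In males it gave 69.1, 49.8, 73.3, 79.00 and 71.04 FPKM in the LPS libraries and 55.99, 65.9, 65.99, 57.1 and 54.8 FPKM in the saline libraries. Both sexes overlapped, and the changes were 0.18 ± 0.26 in females and 0.18 ± 0.24 in males, the male value being -0.002 relative to all genes. Insig1, which retains SCAP and is itself a target of SREBP, gave 52.8, 35.2, 28.9, 40.3 and 43.6 FPKM in the LPS libraries and 80.2, 78.1, 78.7, 41.9 and 44.03 FPKM in the saline libraries in males. In females it gave 48.6, 64.2, 63.04 and 36.1 FPKM in the LPS libraries and 57.9, 64.8, 64.96, 55.7 and 95.3 FPKM in the saline libraries. LPS libraries overlapped saline in both sexes, with male saline libraries 1 to 3, in single-precision format, well above the other 2, in double-precision format. Its average over the sexes was -0.50 ± 0.18 with an adjusted p of 0.0526, and it passed with median-of-ratios scaling at -0.64 (adjusted p 0.00873). Insig2, the second INSIG gene, averaged 15.2 ± 1.40 FPKM after LPS and 21.95 ± 2.51 FPKM after saline in males (SD, n = 5 each), with every LPS library below every saline library, and its change of -0.50 ± 0.17 had an adjusted p of 0.0573. Scap, the escort protein, averaged 35.04 ± 7.02 FPKM after LPS and 24.4 ± 3.93 FPKM after saline in males (SD, n = 5 each), at 0.50 ± 0.25 with an adjusted p of 0.177. Srebf1, which mainly drives fatty acid genes, had 0.06 ± 0.28 in females and 0.32 ± 0.27 in males. In all, every LPS library was below every saline library for 2 members in females (Hmgcs1 and Nsdhl), against 1.75% of all genes, and for 9 in males, against 2.12%, and every LPS library was above for Ebp and Scap in males, against 9.55%, and for 0 members in females, against 3.32%.

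Of the transport genes, Abca1 gave 20.1, 15.6, 20.9 and 26.2 FPKM in the LPS libraries and 27.8, 28.2, 25.3, 37.6 and 27.1 FPKM in the saline libraries in females at 24 h. Male values were 17.4, 22.3, 27.3, 27.2 and 21.8 FPKM in the LPS libraries and 28.9, 27.8, 28.3, 30.3 and 30.7 FPKM in the saline libraries. All male LPS libraries were below all male saline libraries, and in females LPS library 4 lay among the saline values. Abca1 did not pass in either sex alone, at -0.49 ± 0.19 in females (adjusted p 0.184) and -0.34 ± 0.18 in males (adjusted p 0.189), and was lower in their average at -0.41 ± 0.13 (adjusted p 0.0248). Without female saline library 4 this adjusted p was 0.0525, without female LPS library 2 it was 0.0797 and without male LPS library 1 it was 0.0513. Apoe gave 5261, 6597, 3678 and 1343 FPKM after LPS and 1252, 3664, 3674, 4323 and 10010 FPKM after saline in females. Male values were 4027, 3298, 5332, 4544 and 5468 FPKM after LPS and 3627, 3388, 7860, 3885 and 1331 FPKM after saline. Single groups thus spanned up to several-fold, and the changes were -0.05 ± 0.54 in females and 0.36 ± 0.51 in males, with adjusted p of 0.983 and 0.648. Within number formats the Apoe change took both signs, with 0.97 in single-precision and -2.29 in double-precision female libraries. The double-precision value rests on 1 LPS library, library 4 at 1343 FPKM. Abcg1 averaged 3.46 ± 1.80 FPKM after LPS and 1.79 ± 1.16 FPKM after saline in males (SD, n = 5 each), at 0.65 ± 0.29 with an adjusted p of 0.124. Stard4 had -0.60 ± 0.23 in males with an adjusted p of 0.09.

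In fatty acid synthesis, Scd1, the stearoyl-CoA desaturase, was the member called at 24 h. It gave 19.5, 14.6, 13.5, 18.04 and 12.9 FPKM in the LPS libraries and 24.8, 28.6, 37.4, 20.5 and 23.5 FPKM in the saline libraries in males, with no overlap. Female values were 17.3, 19.4, 25.7 and 20.98 FPKM in the LPS libraries and 25.4, 29.3, 21.6, 20.2 and 19.02 FPKM in the saline libraries, with overlap. Scd1 fell by 0.73 ± 0.19 in males (adjusted p 0.0169, -0.91 relative to all genes) and had -0.14 ± 0.20 in females (adjusted p 0.844). The average of -0.44 ± 0.14 passed at an adjusted p of 0.0305, and missed without female saline library 1 (0.0561) or 2 (0.062), male saline library 3 (0.0585), female LPS library 1 (0.0773) or 2 (0.0635), or male LPS library 5 (0.0612). Scd2, its close relative and the more abundant desaturase here, averaged 262 ± 68.00 FPKM after LPS and 328 ± 76.9 FPKM after saline in males (SD, n = 5 each), at -0.33 ± 0.18 with an adjusted p of 0.209. Such near relatives can share reads, which the authors' quantification may have divided between them. Fasn had -0.05 ± 0.26 and Acaca, which makes malonyl-CoA, had -0.20 ± 0.29 in males. Elovl5 had -0.44 ± 0.20 in females and -0.31 ± 0.19 in males, and Elovl6, which elongates palmitate, had -0.35 ± 0.19 in males, where every LPS library was below every saline library. The desaturases of polyunsaturated fatty acids, Fads1 and Fads2, had 0.00 ± 0.18 and 0.29 ± 0.33 in males.

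The sexes were compared at 24 h by the difference between the LPS effect in females and that in males. With limma 0 of the 35 members were called in either direction, against 0% of all genes, and at an unadjusted p under 0.05 there were 2 with a positive difference and 0 with a negative one. The authors' deposited table called 0 members in its comparisons of females with males after LPS and after saline. Of its genes 0.196% were higher and 0.843% lower after LPS, and 0.0261% and 0.0471% after saline. Hmgcs1 differed by 0.15 (95% interval -0.39 to 0.69, adjusted p 0.952) and Ebp by -0.38 (-1.07 to 0.31). The 2 members under 0.05 unadjusted were Scd1, at 0.60 (0.04 to 1.15), and Hsd17b7, at 0.49 (0.02 to 0.96), both with an adjusted p of 0.945. Sc5d differed by 0.49 (-0.14 to 1.12). All genes had a median difference of -0.12 here, and of 0.01 after median-of-ratios scaling. These intervals are wide, so an effect past the test in males alone is not shown to differ between the sexes. Between LPS libraries, females against males, 0 members were called higher, against 0.0154% of all genes, and 0 lower, against 0.0566%, with 2 higher and 0 lower at an unadjusted p under 0.05. Hsd17b7 had 0.43 ± 0.18 in that comparison (adjusted p 0.411), and was the 1 member with every female library above every male library, against 0.494% of all genes, while 0 members had every female library below, against 2.56%. Between saline libraries 0 members lacked overlap, against 0.149% of all genes with females above and 0.299% below. In that comparison of saline libraries 0 members were called higher, against 0.0206%, and 0 lower, against 0.0309%, and 1 was lower in females at an unadjusted p under 0.05, Elovl6.

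**Figure D4:**
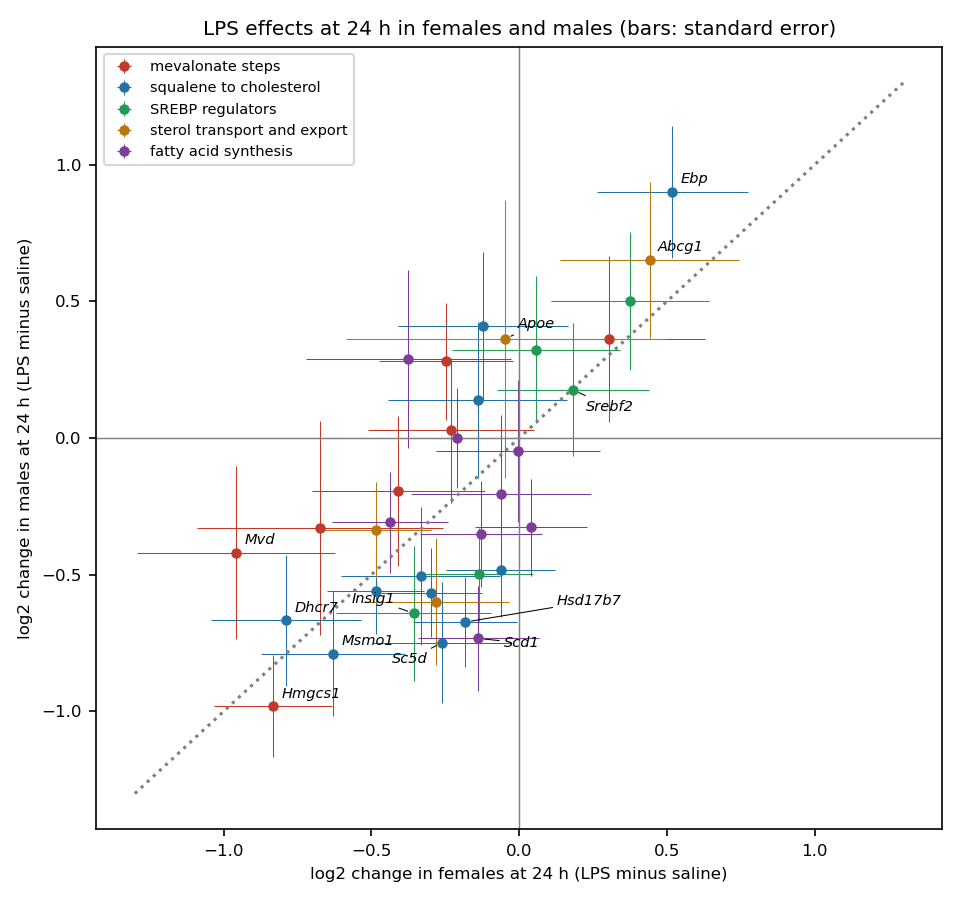
Log2 change of each member at 24 h in females (x axis) against that in males (y axis), LPS minus saline, with SE bars, colours by role and the line of equal change dotted. Hmgcs1 lies far below 0 on both axes, Ebp lies above 0 on both, and Scd1, Hsd17b7 and Sc5d lie below the line.

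At 72 h no member passed the test, with only 3 LPS libraries. With limma 0 were called higher, against 0.0772% of all genes, and 0 lower, against 0%. At an unadjusted p under 0.05 there were 9 lower and 1 higher, with no share of all genes taken. The authors' deposited table called 0 higher, against 0.723% of its genes, and 0 lower, against 0.027%. The median change of the members was -0.40, against -0.10 over all genes, and 28 members had negative values, against 62.2% of all genes. The all-gene median of -0.10 was 0.01 after median-of-ratios scaling, where the members' median was -0.27. It was -0.25 without saline library 3 on FPKM as deposited. The 10 oligodendrocyte markers summed to 850 to 998 FPKM in LPS libraries and 681 to 2211 FPKM in saline libraries at 72 h, 8 of them had negative values, and their median change was -0.58. All 5 oligodendrocyte precursor markers had negative values, with a median of -0.37. None of them was called by limma or listed at 0 in every library, and their part in the member values was not tested. For 9 members every LPS library was below every saline library, against 3.44% of all genes, namely Acat2, Hmgcs1, Mvk, Fdps, Fdft1, Sqle, Cyp51, Dhcr7 and Scd2. For 1, Abca1, every LPS library was above, against 2.34%.

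The largest negative value at 72 h was that of Fdps, which gave 20.98, 28.7 and 27.1 FPKM in the LPS libraries and 48.7, 35.3, 86.7 and 86.4 FPKM in the saline libraries. Its change was -1.21 ± 0.33, or -1.11 relative to all genes, with an adjusted p of 0.3. Fdft1 gave 25.7, 39.1 and 27.2 FPKM in the LPS libraries and 44.8, 44.2, 87.98 and 70.7 FPKM in the saline libraries, at -0.95 ± 0.35 with an adjusted p of 0.711. Saline libraries 3 and 4 had the highest values of both genes. The mitochondrial share was 12.04, 17.3 and 14.7% in LPS libraries 1 to 3 and 17.4, 22.1, 5.96 and 5.43% in saline libraries 1 to 4, so that saline libraries 3 and 4 had the smallest shares too. The mean log2(FPKM + 1) of the oligodendrocyte markers was 4.67, 4.80 and 5.33 in LPS libraries 1 to 3 and 4.82, 4.89, 5.77 and 6.03 in saline libraries 1 to 4. Without libraries under 10% mitochondrial share the median change of the members at 72 h was -0.23, against 0.05 over all genes, and 0 members were called. The part of these measures in the values of single members was not tested. Mvk, the mevalonate kinase, gave 9.52, 8.58 and 8.53 FPKM in the LPS libraries and 12.97, 12.8, 19.8 and 20.6 FPKM in the saline libraries, at -0.80 ± 0.32 with an adjusted p of 0.826. Hmgcs1 gave 49.3, 68.7 and 74.2 FPKM in the LPS libraries and 99.9, 83.7, 85.4 and 83.3 FPKM in the saline libraries, at -0.47 ± 0.23 with an adjusted p of 0.92. Here the saline libraries were tight, and LPS library 1 was the lowest of all. Cyp51 gave 15.1, 25.3 and 23.5 FPKM in the LPS libraries and 36.00, 27.2, 33.4 and 27.3 FPKM in the saline libraries, at -0.54 ± 0.20. Dhcr7 gave 9.01, 14.5 and 17.03 FPKM in the LPS libraries and 24.2, 19.7, 26.5 and 20.8 FPKM in the saline libraries, at -0.75 ± 0.29. Msmo1 gave 166, 266 and 328 FPKM in the LPS libraries and 432, 503, 312 and 389.8 FPKM in the saline libraries, at -0.72 ± 0.28, with LPS library 3 inside the saline range. LPS library 1 was the lowest library for Cyp51, Dhcr7 and Msmo1 as well. Of members called at 24 h in males, Ebp had -0.14 ± 0.29 in females at 72 h, against 0.52 ± 0.26 in females at 24 h, and Sc5d had -0.17 ± 0.27, against -0.26 ± 0.23. Hsd17b7 had -0.08 ± 0.20 in females at 72 h, against -0.18 ± 0.18 at 24 h, and Scd1 had -0.17 ± 0.23, against -0.14 ± 0.20. None of these female values passed the test at either time. Srebf2 gave 36.6, 46.5 and 49.6 FPKM in the LPS libraries and 56.5, 45.3, 94.9 and 77.2 FPKM in the saline libraries, at -0.58 ± 0.29 with an adjusted p of 0.926.

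Abca1 was the member whose LPS effect differed between times. At 72 h it gave 37.8, 47.5 and 36.2 FPKM in the LPS libraries and 28.03, 29.99, 16.5 and 17.3 FPKM in the saline libraries, a change of 0.83 ± 0.21 that did not pass (adjusted p 0.226). The difference between this effect and that at 24 h in females was 1.32 ± 0.28 (95% interval 0.77 to 1.87, adjusted p 0.0273), and it made Abca1 the only member called in that comparison, 1 higher against 0.0206% of all genes and 0 lower against 0.324%. Relative to all genes the difference was 1.48. The call was lost when any of 6 libraries was left out: saline library 4 at 24 h, saline libraries 3 and 4 at 72 h, LPS libraries 1 and 2 at 24 h, and LPS library 2 at 72 h, each of which left 0 members called. Saline libraries 3 and 4 at 72 h, with the lowest Abca1 values of that group, were also those with the small mitochondrial shares. Without libraries under 10% mitochondrial share 0 members were called higher in the comparison of the times. The summed microglia markers at 72 h were 321 to 542 FPKM in LPS libraries and 173 to 341 FPKM in saline libraries, the leukocyte marker Ptprc was higher after LPS, and their part in the Abca1 values was not tested. In the authors' deposited table Abca1 at 72 h had a log2 fold change of 0.66 with an adjusted p of 0.745. Apoe gave 11530, 5065 and 4315 FPKM after LPS and 3058, 4087, 8747 and 7769 FPKM after saline at 72 h, at 0.23 ± 0.62, with LPS library 1 above every saline library and the other 2 inside their range.

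Between 24 h and 3 h in females, 0 members differed in their LPS effect by limma, against 0.293% of all genes called higher and 0.417% called lower, and 5 were lower and 0 higher at an unadjusted p under 0.05. Their largest values were -1.38 ± 0.47 for Mvd (adjusted p 0.263), -1.24 ± 0.36 for Dhcr7 (adjusted p 0.121) and -0.87 ± 0.28 for Hmgcs1 (adjusted p 0.212). Without saline library 1 of 24 h, 1 member was called lower. Between 72 h and 3 h, 0 members were called, against 0.185% higher and 0.577% lower, with 6 lower and 1 higher at an unadjusted p under 0.05. Fdps had -1.64 ± 0.44 (adjusted p 0.0789), Fdft1 -1.32 ± 0.46 and Dhcr7 -1.20 ± 0.38. Without saline library 4 of 3 h, or without saline library 2 of 72 h, 1 member was called lower in this comparison.

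In the authors' deposited table, for which the submitters' processing notes name DESeq2, 18 members were called lower in males at 24 h, against 10.2% of its genes, and Ebp was called higher, against 8.96%. Hmgcs1 had a log2 fold change of -1.12 (adjusted p 4.77e-06) in males and -0.84 (adjusted p 0.0325) in females in the authors' deposited table. Members that the authors' deposited table called lower in males and limma on FPKM did not include Insig1 at -0.83 (adjusted p 0.00679), Insig2 at -0.75 (adjusted p 3.19e-05), Abca1 at -0.52 (adjusted p 0.0105) and Dhcr7 at -0.78 (adjusted p 0.00213). The table called Mvd (-1.02, adjusted p 0.0161) and Dhcr7 (-0.86, adjusted p 0.012) lower in females. These values come from the same libraries as those above and are no independent evidence.

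Other genes of lipid metabolism were followed in 3 further lists. Of 17 tested genes of sterol synthesis, uptake and SREBP control, 0 were called at 3 h, 1 was lower at 24 h in females, 2 were higher and 2 lower at 24 h in males, and 0 were called at 72 h. Of 22 genes of sterol turnover, storage and lipoprotein handling, 1 was higher at 3 h, 1 higher at 24 h in females, 4 higher at 24 h in males and 0 at 72 h, and 0 were lower in any of these. Of 27 genes of fatty acid supply, elongation, activation and use, 0 were called at 3 h, 3 were higher and 1 lower at 24 h in females, 2 were higher and 1 lower at 24 h in males, and 0 were called at 72 h. Among all genes tested, 1.94% were higher and 0.443% lower at 3 h, 2.54% and 0.798% at 24 h in females, 7.08% and 1.82% at 24 h in males, and 0.0772% and 0% at 72 h. At an unadjusted p under 0.05 the 3 lists had, in that order, 1, 2 and 1 genes higher and 0, 2 and 0 lower at 3 h. At 24 h they had 1, 5 and 5 higher and 2, 2 and 2 lower in females, and 8, 9 and 7 higher and 2, 1 and 2 lower in males. At 72 h they had 0, 1 and 0 genes higher and 1, 2 and 2 lower.

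Ch25h, which makes 25-hydroxycholesterol, a sterol known to hold SREBP processing back and to activate liver X receptors, gave 20.1, 26.4, 21.3, 7.82 and 6.98 FPKM in the LPS libraries and 0.360, 0.650, 0.926 and 0 FPKM in the saline libraries at 3 h. Every LPS library was above every saline library, of which the fourth was listed at 0, and the change was 3.43 ± 0.30 with an adjusted p of 4.91e-10. It was also higher at 24 h, by 1.45 ± 0.30 in females (adjusted p 0.00295) and 2.19 ± 0.29 in males (adjusted p 4.74e-06). At 24 h Ch25h gave 4.32, 4.08, 2.95, 4.49 and 8.20 FPKM after LPS and 0, 0.337, 0.320, 0.249 and 0.220 FPKM after saline in males. Clu, an apolipoprotein of astrocytes, averaged 5641 ± 1087 FPKM after LPS and 2864 ± 846 FPKM after saline in males (SD, n = 5 each), and rose by 1.002 ± 0.28 (adjusted p 0.0244). The lipocalin Apod rose by 1.55 ± 0.37, the lipoprotein receptor Scarb1 by 0.90 ± 0.27 and Nr1h3, a liver X receptor gene, by 0.83 ± 0.24 in males. Cyb5r3, a reductase that supplies electrons to lipid desaturases, rose by 0.91 ± 0.27, and Rnf139, a ubiquitin ligase of the endoplasmic reticulum, fell by 0.78 ± 0.22. Fabp7, the brain fatty acid binding protein, averaged 65.3 ± 25.2 FPKM after LPS (SD, n = 4) and 181 ± 24.3 FPKM after saline (SD, n = 5) in females. It fell by 1.51 ± 0.23 in females (adjusted p 4.73e-05) and by 0.91 ± 0.22 in males (adjusted p 0.00918). Acsl5, which activates fatty acids, rose by 0.73 ± 0.20 in females and 0.78 ± 0.19 in males. Hacd2, a dehydratase of fatty acid elongation, rose by 0.76 ± 0.20 in females.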

How the data were processed

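The authors deposited 1 FPKM value for each gene in each library. HISAT2, StringTie and the mm10 build are named in the submitters' processing notes. The log2 fold changes and adjusted p-values beside them are the authors' own, and the same notes name DESeq2. Versions and settings are not given in the sources used here. Libraries were made with SMART-seq HT and Nextera XT, per the labels' protocols. FPKM scales out depth, so a gene's value also moves with the share taken by abundant transcripts, and no counting interval can be given. Of 19584 lines, 11 repeated a gene and were dropped, and 20 symbols that had turned into dates were restored.

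Groups were taken from the sample labels. All 35 libraries entered 1 fit of log2(FPKM + 1) in limma 3.58.1 (R 4.3.3), with 1 coefficient per group, a trended prior and two-sided moderated tests, over the 19426 genes with at least 1 FPKM in at least 3 libraries. All 35 members passed this filter. P-values were adjusted by Benjamini-Hochberg within each of 11 contrasts. The fit was tested on simulated data.

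The members, lists and tests were chosen with earlier results of these data known. Values in every library at 24 h are given for members called in an LPS contrast or in the 24 h average. They are also given for Srebf2, Insig1, Abca1, Apoe and Hmgcs1 whatever their call. At 3 h and 72 h such values are given for some members only. Fdps, Fdft1 and Mvk at 72 h, and members named for 3 h, were picked after their values were seen. Members of a pathway list are named where called, and some genes are not reported here and are counted only. Alternatives were a pseudocount of 0.1, a mean FPKM of at least 5, no filter, median-of-ratios scaling, rescaling without mitochondrially encoded genes, no intensity trend, the groups of a contrast alone, quality weights, the number format as a covariate, a replicate block, each number format and each library left out. Positions are from GENCODE M21 (mm10) and promoters from RefSeq.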

Additional observations from a re-analysis of the deposited data

Results flagged for a closer look

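In 8 of the 98 groups of 4 or 5 libraries that were read for the named members, 1 library stood apart from the rest of its group by Dixon's criterion, which chance meets in about 1 group in 20. Hmgcs1 was at 72.6 FPKM in saline library 1 at 3 h, below the other 3 libraries, and at 99.9 FPKM in saline library 1 at 72 h, above the other 3. Msmo1 was at 498 FPKM in male LPS library 1 at 24 h, which put it inside the saline range. Ebp was at 12.7 FPKM in female saline library 5 at 24 h and at 14.4 FPKM in saline library 4 at 3 h, in both cases above the rest of its group. Sc5d was at 16.4 FPKM in male LPS library 5 at 24 h, below the other 4. Insig1 was at 95.3 FPKM in female saline library 5 at 24 h, above the other 4. Abca1 was at 37.6 FPKM in female saline library 4 at 24 h, above the other 4.

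The LPS effect on Abca1 differed between 72 h and 24 h in females by 1.32 on the log2 scale, past the test of that difference. The microglia markers, whose sums are given with the 72 h values, had positive values for all 10 at 72 h, with 0 called. At 24 h in females 6 of them were positive and 4 negative. Their part in the Abca1 values was not tested.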

How the results depend on the processing

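The averaged Hmgcs1 change at 24 h passed under every alternative run. With quality weights females had 1 higher and 6 lower at 24 h, males 2 and 12, and the average of the sexes 4 and 16, with 1 higher and 11 lower at 72 h. The same weights gave 1 lower for 24 h minus 3 h, 2 higher and 8 lower for 72 h minus 24 h, and 1 higher and 13 lower for 72 h minus 3 h. Of all genes they called 4.28% lower in females and 7.13% in males at 24 h, and 13.5% at 72 h. The shares lower were 1.34% for 24 h minus 3 h, 21.1% for 72 h minus 24 h and 18.9% for 72 h minus 3 h. Of 19426 genes 1354 were higher in females, 3419 in males and 997 at 72 h. For 72 h minus 24 h 1752 were higher, and for 72 h minus 3 h 1470. Median-of-ratios scaling gave 3 lower in females, 12 in males and 16 in the average. Of all genes it called 0.829% lower in females and 3.26% in males. Rescaling without mitochondrially encoded genes gave 1, 8 and 14 lower, with 1.12% of all genes lower in females and 2.22% in males. With the groups of a contrast alone 0 were lower in females at 24 h, against 0.299% of all genes. For 72 h minus 24 h 0 were then higher, with 2 of 19426 genes higher. A pseudocount of 0.1 gave 2 higher in the average. In single-precision libraries 0 were lower in females, 0 higher and 1 lower in males and 4 lower in the average. Of all genes 0.649% were then lower in females and 0.124% in males, where 133 of 19426 were higher. In double-precision libraries 0 were higher and 0 lower in males, with 224 of 19426 genes higher and 0.108% of all genes lower. Females had 1 LPS library in that format at 24 h, so no counts are given for contrasts that use it. The mitochondrial share as a covariate, chosen after seeing the data, gave 6 lower in females, 7 in males and 12 in the average, 0 higher in males and in the average, and 2 lower for 24 h minus 3 h. Of all genes it called 1.56% lower in females and 0.34% in males. Without the 10 libraries under 10% mitochondrial share, also chosen after seeing the data, 0 were lower in females, 0 higher and 3 lower in males, 0 higher and 2 lower in the average, and 0 higher for 72 h minus 24 h. Of all genes 0.314% were then lower in females and 0.113% in males. At 24 h this cut left LPS libraries 3 and 4 in females and 2 and 3 in males. No cause was tested.

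With the replicate block, 0 were lower in females, 3 in males and 6 in the average, 2 were higher in the average, and 0 were higher for 72 h minus 24 h. Of all genes 0.515% were then lower in females and 1.64% in males, and 2 of 19426 were higher for 72 h minus 24 h. Same-numbered libraries correlated between -0.404 and 0.372. Of these pairs, 1 of 4 in females and 1 of 5 in males at 24 h were over 0.1. At 3 h 2 of 4 were, and at 72 h 1 of 3. These are correlations of deviations from the means of small groups, so they cannot decide whether the numbers pair the libraries.

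Leaving out 1 library at a time gave 0 to 2 lower in females, 0 to 2 higher and 3 to 8 lower in males, and 1 to 2 higher and 7 to 11 lower in the average. The share of all genes lower in these fits was 0.371 to 1.63% in females and 0.53 to 2.57% in males. It gave 0 to 1 higher at 3 h and for 72 h minus 24 h, and 0 to 1 lower for 24 h minus 3 h and for 72 h minus 3 h. Without counts, the precision of low genes such as Stard4 and Abcg1 is unknown, and the small number of libraries, 3 after LPS at 72 h, limits what could be called.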
